A study of Mus musculus with 6 samples.

Results

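The oligoadenylate synthetase (OAS) genes Oas1a, Oas2, Oas3, Oasl1 and Oasl2 were compared between alopecic and unaffected mouse skin. They were chosen by name, and every probe set whose single gene symbol was one of these names was taken, which gave 1 probe set for each of the 5 genes out of 18193 genes measured. All 6 mice were of the inbred strain C3H/HeJ, in which the autoimmune hair loss alopecia areata can arise spontaneously. The alopecic group was affected skin of 3 mice with alopecia areata and the unaffected group was skin of 3 other mice, with 1 array per mouse. The labels name no treatment, transgene, age or body site for either group. Values are log2 signals as deposited, summarised per probe set by the RMA method. They are relative within a probe set, so a level is compared between the groups for 1 probe set at a time, and of a gap between the probe sets of 2 genes only its change between the groups can be read.

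OAS proteins are sensors of double-stranded RNA, a form of RNA that many viruses make as they replicate. The catalytically active ones join ATP into short oligoadenylates, which act as a messenger that starts the breakdown of viral and cellular RNA. OAS genes are classical targets of interferons, so their transcripts are commonly read as a trace of interferon signalling.

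Oasl2 and Oas1a rose in alopecic skin, by 23.1-fold and 8.65-fold, and the other 3 members did not pass the test. Oas2, Oas3 and Oasl1 had log2 differences of 1.99 (SE 0.28), 0.96 (SE 0.22) and 0.66 (SE 0.25). All 5 genes had a higher mean in alopecic skin, and in 4 of them every alopecic array lay above every unaffected array, the exception being Oasl1. Over all genes, 0.264% were called as higher at an adjusted p below 0.05 in limma, and 6.93% had alopecic arrays that all lay above the unaffected ones. Each of the 5 members had an unadjusted limma p below 0.05, as did 7.15% of all genes in either direction. In a fit of all 45037 probe sets, of which 0.14% were called as higher, Oasl2 and Oas1a passed as well (limma adjusted p = 0.0109 and 0.0297). The median log2 difference was 1.99 over the 5 members and -0.01 over all genes. The arrays measured whole skin, in which more cells of a type and more RNA per cell cannot be told apart.

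**Figure D1:**
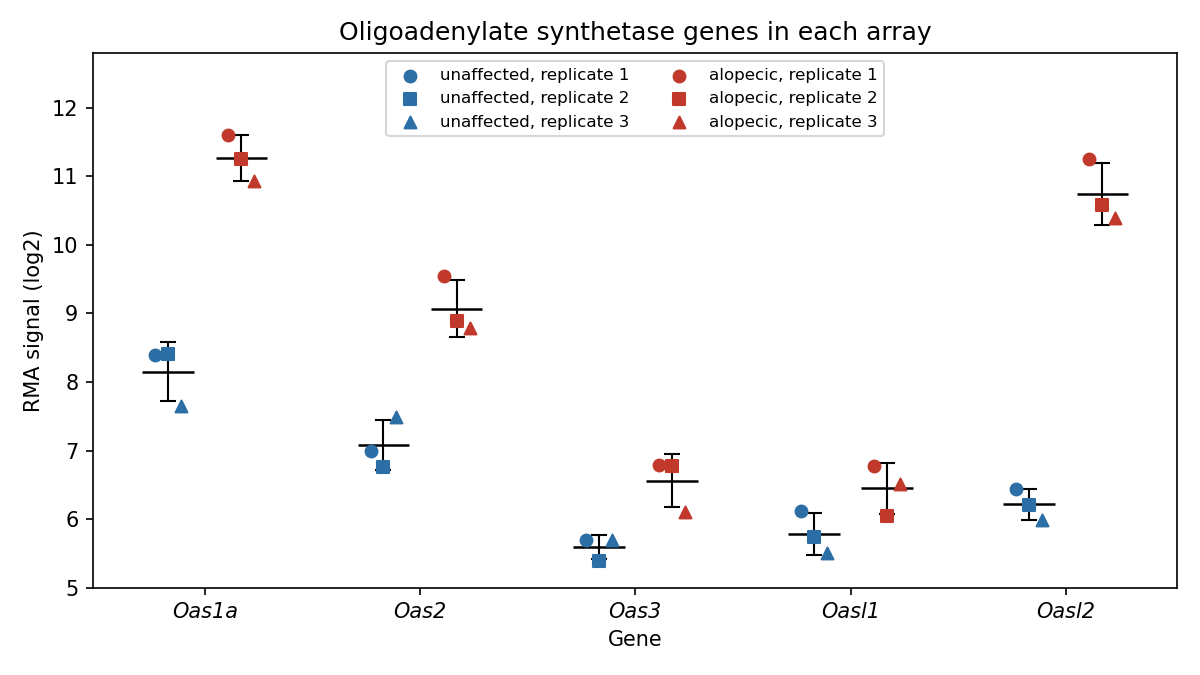
RMA signal (log2, vertical axis) of each member gene (horizontal axis) in the 3 unaffected arrays (blue) and the 3 alopecic arrays (red), with replicates shown by marker shape; horizontal lines are group means and bars are SD. The groups are far apart for Oasl2 and Oas1a, lie closer for Oas2 and Oas3, and overlap for Oasl1, and alopecic replicate 1 is the highest array for each gene.

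Oas1a encodes a catalytically active synthetase of the small, single-unit kind. Its probe set, 1424775_at, read 11.61, 11.25 and 10.94 in alopecic replicates 1, 2 and 3 and 8.40, 8.41 and 7.65 in unaffected replicates 1, 2 and 3. The lowest alopecic array was thus 2.53 log2 units above the highest unaffected array, a gap wider than the range within either group. The means were 11.27 ± 0.33 and 8.15 ± 0.43 (SD, n = 3 each), a log2 difference of 3.11 (SE 0.28, limma adjusted p = 0.0230). Unaffected replicate 3 was the lowest array, and without it the difference was 2.86 (limma adjusted p = 0.0287). That was the only single array whose removal kept the call: without any other one the limma adjusted p ran from 0.0704 to 0.121, while the difference stayed between 2.94 and 3.28. Oas1a has a close relative, Oas1g, which is not analysed here, and how far the probe set also reads Oas1g transcripts was not tested.

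Oas2 encodes a larger synthetase built of repeated OAS units. Probe set 1425065_at read 9.54, 8.88 and 8.78 in the alopecic arrays and 7.00, 6.77 and 7.49 in the unaffected arrays, each in the order of the replicates. The groups were separated by 1.30 log2 units, although the difference missed the threshold. The means were 9.07 ± 0.41 and 7.08 ± 0.37 (SD, n = 3 each), and the log2 difference of 1.99 corresponds to 3.97-fold (SE 0.28, limma adjusted p = 0.0917). Here unaffected replicate 3 was the highest unaffected array, and without it the difference was 2.19 (limma adjusted p = 0.0957).

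Oas3 encodes the largest synthetase, also built of repeated OAS units. Probe set 1425374_at read 6.79, 6.77 and 6.11 in alopecic replicates 1, 2 and 3 and 5.70, 5.39 and 5.69 in the unaffected ones. The groups were 0.41 log2 units apart, with alopecic replicate 3 nearest to the unaffected arrays. The log2 difference was 0.96 (SE 0.22, 1.95-fold, limma adjusted p = 0.356). Its unaffected mean of 5.59 ± 0.18 (SD, n = 3) lay below the lowest array median of 6.11, a range in which RMA values are compressed and fold differences are understated.

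The OAS-like proteins carry ubiquitin-like domains at their C-terminus. In mouse, Oasl1 lacks synthetase activity and is known to hold back translation of the interferon regulator Irf7, whereas Oasl2 has kept synthetase activity. Probe set 1453196_a_at for Oasl2 read 11.25, 10.58 and 10.40 in the alopecic arrays and 6.44, 6.21 and 5.99 in the unaffected arrays. The lowest alopecic array exceeded the highest unaffected array by 3.96 log2 units, the widest separation among the 5 members. The means were 10.74 ± 0.45 and 6.21 ± 0.23 (SD, n = 3 each), a log2 difference of 4.53 (SE 0.26, limma adjusted p = 0.00774), the 10th largest difference of all 18193 genes. Without unaffected replicate 3 it was 4.41 (limma adjusted p = 0.0239). The call was lost without unaffected replicate 1 (4.64, limma adjusted p = 0.0584) and without unaffected replicate 2 (4.53, limma adjusted p = 0.0769). As the unaffected mean lay within 0.11 of the lowest array median, 23.1-fold is not an exact ratio.

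Oasl1, which lies beside Oasl2 on chromosome 5, had the smallest difference of the 5 members and did not pass the test. Probe set 1424339_at read 6.78, 6.05 and 6.51 in alopecic and 6.12, 5.73 and 5.50 in unaffected replicates 1, 2 and 3. Unaffected replicate 1 lay above alopecic replicate 2, so the groups overlapped. The log2 difference was 0.66 (SE 0.25, 1.58-fold, limma adjusted p = 0.656). The unaffected mean of 5.78 ± 0.31 (SD, n = 3) was also below the lowest array median, so that the difference may be compressed.

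**Figure D2:**
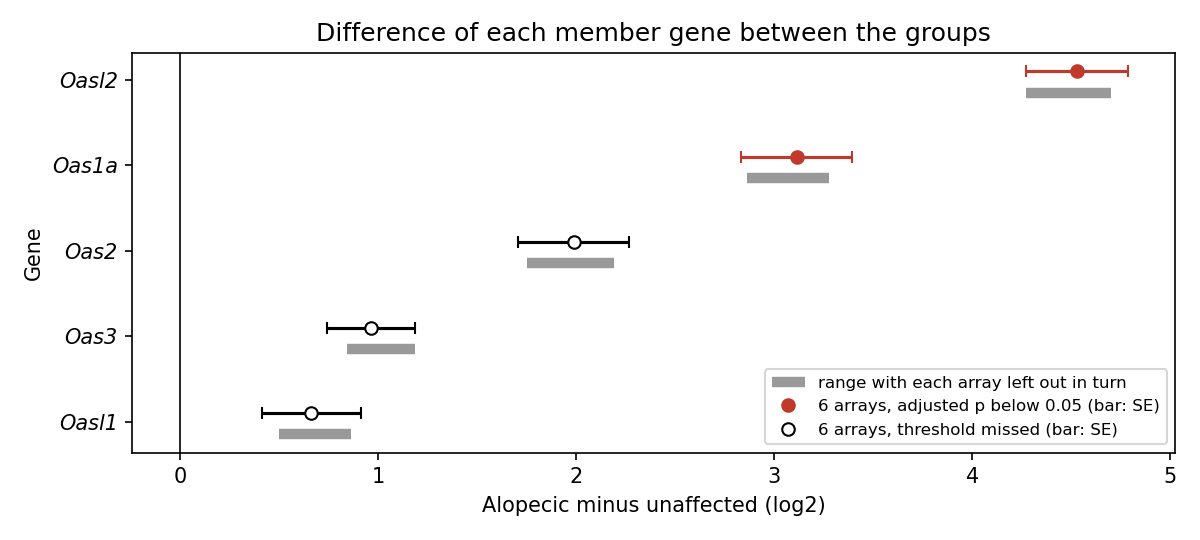
Log2 difference, alopecic minus unaffected (horizontal axis), of each member gene (vertical axis); points are the fit of 6 arrays with SE, filled where the adjusted p was below 0.05, and grey bars span the differences with each array left out in turn. The order from Oasl2 (4.53) and Oas1a (3.11) to Oasl1 (0.66) is seen with its error, and no grey bar reaches 0.

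Whether the members changed unequally was examined through the log2 gap between 2 genes within each array, which removes what all genes of an array share. Each gap was written as the gene with the larger log2 difference over the other, so the direction of its change was set by the data. The pairs share genes and are not independent, and how often other gene pairs separate the groups was not examined. For 9 of the 10 pairs the gap in every alopecic array lay above the gap in every unaffected array. Each of these 9 had p = 0.1 in the exact two-sided permutation test, the smallest that 20 assignments allow, and 0.111 after adjustment over the 10 pairs, so none could pass 0.05. The gap of Oasl2 over Oasl1 had a mean of 0.43 ± 0.09 over the unaffected arrays and of 4.29 ± 0.36 over the alopecic arrays (SD, n = 3 each), a change of 3.86. The gap of Oasl2 over Oas1a changed by 1.41, from -1.94 ± 0.27 to -0.53 ± 0.16, and that of Oas1a over Oas2 by 1.13, from 1.07 ± 0.79 to 2.19 ± 0.16 (SD, n = 3 each). The last change was 0.67 without unaffected replicate 3. The gap of Oas3 over Oasl1 overlapped between the groups, at 0.11 ± 0.57 and -0.19 ± 0.33 (SD, n = 3 each; exact permutation p = 0.6).

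Among the alopecic mice, replicate 1 was highest for all 5 members, and replicate 3 was lowest for 4 of them, Oasl1 being lowest in replicate 2. The alopecic arrays spanned from 0.67 (Oas1a) to 0.85 (Oasl2) log2 units per gene. Over the 10 pairs, the SD of the gap between 2 members ran from 0.05 (Oasl2 and Oas2) to 0.57 (Oas3 and Oasl1) in alopecic skin and from 0.09 (Oasl2 and Oasl1) to 0.79 (Oas1a and Oas2) in unaffected skin, and these spreads were not tested against each other. In unaffected skin replicate 3 was lowest for Oas1a, Oasl1 and Oasl2 and highest for Oas2.

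Markers of lymphocytes had higher sums in alopecic skin, although no single marker passed the test. The linear RMA signal summed over 8 T cell markers was 3224, 1583 and 1449 in alopecic replicates 1, 2 and 3 and between 728 and 895 in unaffected arrays. For 6 markers of cytotoxic lymphocytes the sum ran from 1855 to 7687 in alopecic and from 319 to 367 in unaffected skin. For 3 general leukocyte markers it ran from 2852 to 7471 and from 1010 to 1501. An unaffected mean below the lowest array median was found for 4 of the 8 T cell and 5 of the 6 cytotoxic markers. Ratios between the groups of those sums are thus not exact. Of these 17 genes 16 had every alopecic array above every unaffected array, against 6.93% of all genes. The exception, Cd4, chosen after its values were seen, was lower in every alopecic array (log2 difference -0.16, SE 0.12). By limma 0 of the 17 passed over all genes, and 15 had an unadjusted p below 0.05, against 7.15% of all genes in either direction. The groups overlapped for the sum of 6 macrophage markers (2078 to 6434 in alopecic and 2354 to 4576 in unaffected skin). They also overlapped for 4 dendritic and Langerhans cell markers (533 to 1456 and 600 to 823), whose 2 brightest shifted in opposite directions. Cd207 differed by -0.46 (SE 0.45, limma adjusted p = 0.875). Itgax was higher in every alopecic array (log2 difference 1.66, SE 0.52, limma adjusted p = 0.578). The B cell markers Cd79a and Ms4a1 lay below the array medians in all arrays. The sum of 3 plasmacytoid dendritic cell markers did not overlap, at 1344 to 1442 in alopecic and 200 to 279 in unaffected skin. Of these 3, Bst2, which interferon also induces in other cells, rose 9.80-fold (limma adjusted p = 0.00659), while Siglech and Ccr9 had log2 differences of -0.34 and -0.24 (limma adjusted p = 0.756 and 0.906). The part of these cells in the OAS differences was not tested. Keratinocyte markers, which define the tissue, summed to between 59934 and 73439 in alopecic and 60847 and 73161 in unaffected skin. That sum joins shifts in both directions. Krt5 and Krt14 were higher in every alopecic array (log2 difference 0.40 and 0.48) and Krt15 was lower in every one (-0.86). Of these, Krt5 and Krt15 were chosen after their values were seen. For Krt10, the brightest marker of the list, the groups overlapped (-0.30, SE 0.33). Of the 5 keratinocyte markers 0 passed in limma, and 3 had an unadjusted p below 0.05, against 7.15% of all genes. Unaffected replicate 3 stood apart from the other arrays, with Pearson correlations across genes of 0.929 and 0.906 with the other unaffected arrays, and 4 hair shaft markers summed there to 137, against 33996 and 54832 in unaffected replicates 1 and 2.

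Further OAS genes, genes listed under oligoadenylate turnover and the genes that sense RNA or carry interferon signals were then read from lists. Of 5 further OAS genes 0 passed the test in limma, and 3 had an unadjusted p below 0.05, as did 7.15% of all genes (median log2 difference 0.48). Oas1f differed by -0.40 (SE 0.36, limma adjusted p = 0.867) and Oas1e by 0.48 (SE 0.18, limma adjusted p = 0.680). Oas1b, chosen after its values were seen, is known in mice for its role in resistance to flaviviruses and is listed as a transcribed pseudogene in the reference strain C57BL/6J. It read 8.07, 7.71 and 7.16 in alopecic and 6.35, 6.49 and 6.58 in unaffected replicates 1, 2 and 3, the one gene of these 5 whose groups did not overlap (log2 difference 1.17, SE 0.24, limma adjusted p = 0.288). Of all genes, 6.93% were likewise higher in every alopecic array.

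Genes listed under oligoadenylate turnover differed little, though that name suits only Pde12 and Akap7 among them. Pde12, a phosphodiesterase that breaks down oligoadenylates, differed by 0.43 (SE 0.33), and by 0.06 without unaffected replicate 3. Abce1, a ribosome recycling factor, differed by 0.09 (SE 0.28), and Akap7, a kinase-anchoring protein with a domain that can also degrade oligoadenylates, by 0.07 (SE 0.28). The limma adjusted p was 0.859, 0.956 and 0.968, the groups overlapped for all 3 genes, and 0 of them had an unadjusted p below 0.05.

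Of 11 genes of nucleic acid sensing 3 rose, against 0.264% of all genes (median log2 difference 1.36). For 9 of them every alopecic array lay above every unaffected array, against 6.93% of all genes. Dhx58, which encodes the RNA helicase LGP2, rose 6.51-fold, Ddx58, the RNA sensor RIG-I, 2.98-fold, and Adar, which edits adenosines in double-stranded RNA, 2.63-fold (limma adjusted p = 0.0377, 0.0377 and 0.0363). The number that passed was 1 without alopecic replicate 1, namely Dhx58, and 0 without any other single array. In the fit of all probe sets, the brightest probe set of Adar passed (limma adjusted p = 0.0477). The brightest of Dhx58 and of Ddx58 missed the threshold there (limma adjusted p = 0.0524 and 0.0515). For Dhx58 the fold rests on the brightest of 3 probe sets: the others lay near the bottom of the scale and differed by 0.35 and 0.01. The brightest had an unaffected mean of 5.36, below the lowest array median, so 6.51-fold is not an exact ratio. For Ddx58 the others differed by 1.57 and 0.11, and for Adar by 1.37 and 1.28. Mavs, the adaptor downstream of RIG-I and chosen after its values were seen, differed by -0.02 (SE 0.20). Zbp1, also chosen after its values were seen, had the largest difference of the list but missed the threshold (3.27, SE 0.40, limma adjusted p = 0.0599). Its dimmer probe set differed by 3.09 and passed in the fit of all probe sets (limma adjusted p = 0.0163). The unaffected mean of that probe set, 5.47, lay below the lowest array median.

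Of 12 measured genes of interferon signalling 2 rose, both of them transcription factors, against 0.264% of all genes. For 5 of the 12 every alopecic array lay above every unaffected array, against 6.93% of all genes. Irf1 read 11.82, 11.61 and 11.60 in alopecic and 8.50, 8.84 and 8.90 in unaffected replicates 1, 2 and 3, or 7.61-fold higher (limma adjusted p = 0.00607). Irf7, whose translation Oasl1 restrains in mouse, read 10.16, 9.58 and 9.22 in alopecic skin against 7.32, 7.28 and 7.32, or 5.08-fold higher (limma adjusted p = 0.0377). In the fit of all probe sets Irf1 passed and Irf7 did not (limma adjusted p = 0.00794 and 0.0524). Irf1 passed in 5 of the 6 fits with 1 array left out, missing without unaffected replicate 2 (limma adjusted p = 0.0679). Irf7 passed in 1 of them, without alopecic replicate 1. Of 9 listed interferons Ifnk, Ifne, Ifnl2 and Ifnl3 were not measured. Of the 5 measured interferons 1 rose, against 0.264% of all genes. It was Ifng (log2 difference 2.24, SE 0.25, limma adjusted p = 0.0494), which passed in 1 of these 6 fits, without alopecic replicate 1. Ifng did not pass in the fit of all probe sets (limma adjusted p = 0.0658). The unaffected mean of Ifng, 4.75, lay near the bottom of the scale, so its difference is not exact. Ifna2 differed by -0.12 (SE 0.19) and Ifnb1, chosen after its values were seen, by -0.07 (SE 0.12), with both near the bottom of the scale at unaffected means of 5.09 and 4.86.

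**Figure D3:**
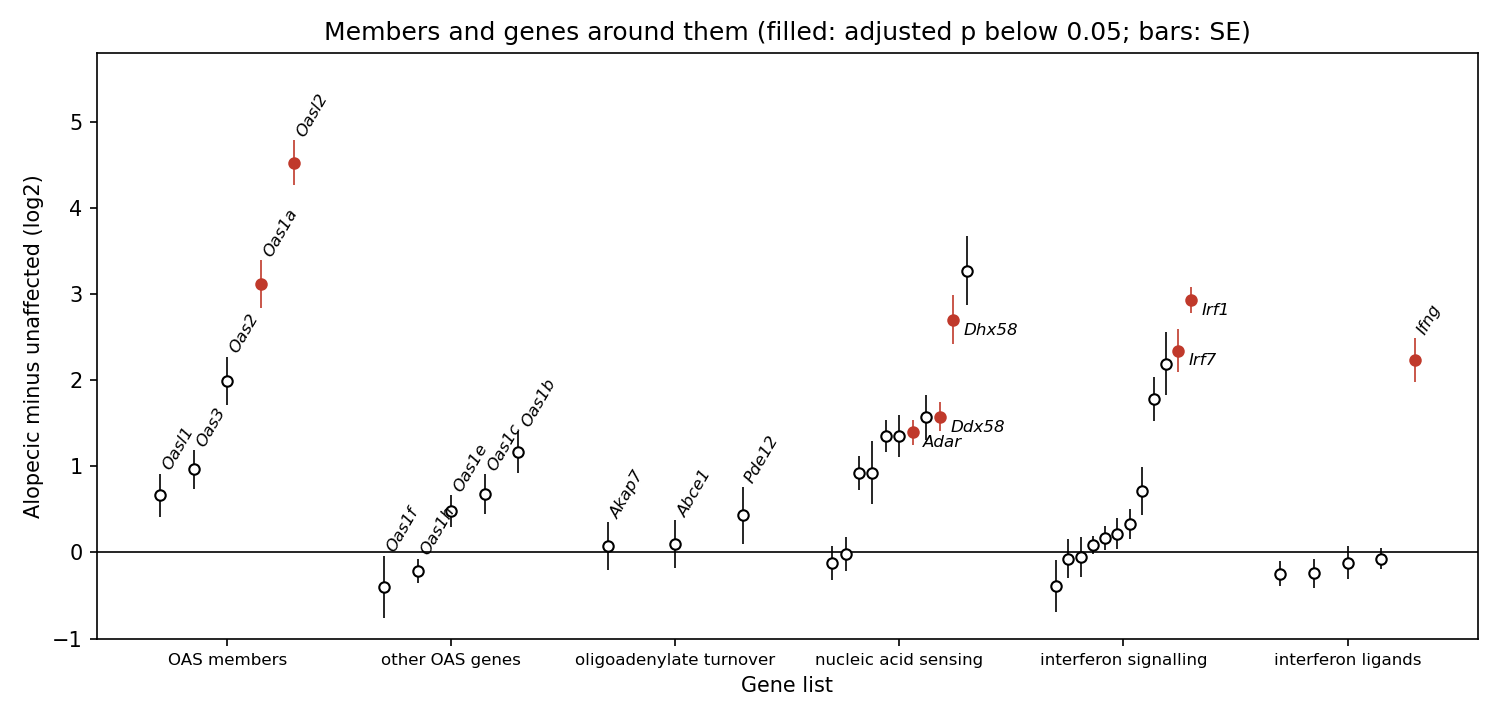
Log2 difference, alopecic minus unaffected (vertical axis, bars SE), of the 5 OAS members and of each measured gene of 5 lists (horizontal axis); filled points had an adjusted p below 0.05. Oasl2 at 4.53 is the highest point, while the 3 genes listed under oligoadenylate turnover lie between 0.07 and 0.43.

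Mouse OAS genes lie in a pair of clusters on chromosome 5, and the genes beside them were examined. RefSeq lists 12 OAS genes there, of which 10 were measured here. The 3 nearest measured genes on each side of each cluster gave 12 neighbours, with a median log2 difference of 0.03, and 0 of them passed the test (smallest limma adjusted p = 0.778; 0 with an unadjusted p below 0.05). The groups overlapped for 11 of them. 2610524H06Rik, chosen after its values were seen, was higher in each alopecic array, as were 6.93% of all genes. It differed by 1.16 (SE 0.62), and by 0.42 without unaffected replicate 3. Within the Oas cluster, Oas1h, at -0.22, was the measured gene of the family nearest in order to Oas1a, at 3.11, but its group means of 4.62 and 4.83 lay below the lowest array median, so that a difference there may be compressed.

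**Figure D4:**
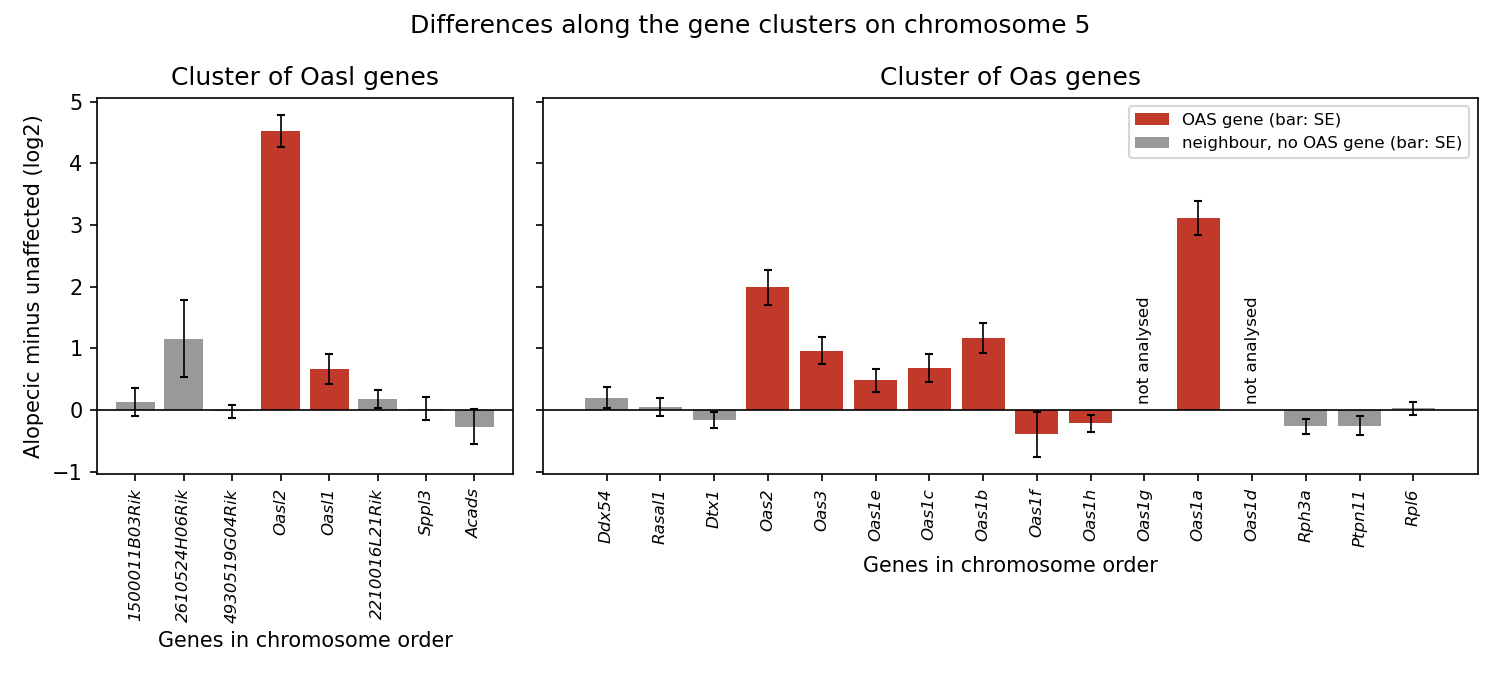
Log2 difference, alopecic minus unaffected (vertical axis, bars SE), of measured genes in their RefSeq order along chromosome 5, for the Oasl cluster (left) and the Oas cluster (right) with 3 neighbours on each side; red bars are OAS genes and grey bars are other genes. High bars stand beside low ones in both clusters, as Oasl2 (4.53) beside Oasl1 (0.66).

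The promoters of the members were read for the binding motifs of interferon-activated factors, because OAS genes are known interferon targets. Searched were the interferon-stimulated response element, written GAAANNGAAA, and the gamma-activated site, written TTCNNNGAA, on both strands, in the 250 bases before the annotated start. RefSeq windows of build GRCm38.p6 matched 4 of the 5 members, all but Oas2. They are shown 5′ to 3′ on the strand of the gene, with motif matches in capitals, to set windows with a match beside windows without one.
Oas1a, chr5:120907526-120907775, minus strand: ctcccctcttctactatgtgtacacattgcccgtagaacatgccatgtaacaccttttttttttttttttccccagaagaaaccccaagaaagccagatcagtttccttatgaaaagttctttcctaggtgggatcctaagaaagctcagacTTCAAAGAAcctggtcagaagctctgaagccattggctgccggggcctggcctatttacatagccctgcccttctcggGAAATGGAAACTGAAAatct
Oas3, chr5:120777660-120777909, minus strand: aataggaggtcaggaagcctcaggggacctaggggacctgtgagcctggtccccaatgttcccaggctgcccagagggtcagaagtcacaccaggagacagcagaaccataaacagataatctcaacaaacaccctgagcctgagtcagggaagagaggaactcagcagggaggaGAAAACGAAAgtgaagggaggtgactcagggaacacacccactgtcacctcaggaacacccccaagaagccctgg
Oasl2, chr5:114896684-114896933, plus strand: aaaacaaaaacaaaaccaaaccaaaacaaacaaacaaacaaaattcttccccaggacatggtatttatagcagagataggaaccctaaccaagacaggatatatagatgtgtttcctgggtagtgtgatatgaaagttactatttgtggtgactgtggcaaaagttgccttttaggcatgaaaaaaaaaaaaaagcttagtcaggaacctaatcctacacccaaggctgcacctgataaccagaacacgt
Oasl1, chr5:114922990-114923239, plus strand: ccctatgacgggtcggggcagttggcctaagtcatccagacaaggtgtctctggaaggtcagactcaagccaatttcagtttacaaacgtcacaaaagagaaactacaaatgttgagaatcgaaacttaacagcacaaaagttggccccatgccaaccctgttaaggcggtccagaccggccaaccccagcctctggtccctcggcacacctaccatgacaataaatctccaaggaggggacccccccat
The Oas1a window held 2 matches of the response element, which overlap and share 4 bases, starting 20 and 14 bases before the annotated start, and 1 match of the gamma-activated site starting 98 bases before it. The Oas3 window held 1 response element, starting 75 bases before the start. The windows of Oasl2 and Oasl1 held neither set of letters. The search misses sites that differ from these letters or lie outside the 250 bases. A window without a match therefore does not show that a site is missing. Of all 32851 windows of this length 2.98% held the response element and 7.02% the gamma-activated site. A match is a run of letters and no measured binding site, and the reference strain C57BL/6J is not the strain of these mice.

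Finally, the genes whose profile over the 6 arrays was closest to that of each member were listed, by the root mean square difference of log2 values after each gene was centred on its own mean. Closest to Oasl2 were the interferon-induced GTPases Gbp6 (0.15), Iigp1 (0.26) and Igtp (0.27), whose log2 differences were 4.34, 4.66 and 4.40. Closest to Oas1a were Bst2, a membrane protein that tethers virus particles (0.25), Parp14, an ADP-ribosyltransferase (0.26), and Samhd1, which breaks down deoxynucleotides (0.31). Closest to Oas2 were the ubiquitin ligase Rnf213 (0.16), Il18bp, which binds and blocks interleukin-18 (0.17), and the immunoproteasome subunit Psmb8 (0.18). The nearest profiles to Oas3 were those of the transcription factor Ets1 (0.10), the phospholipid scramblase Plscr1 (0.11) and the antiviral GTPase Mx2 (0.11). Those to Oasl1 were Osbpl3, an oxysterol-binding protein (0.05), Fgfbp3 (0.11) and the sulfate transporter Slc26a2 (0.12). These lists describe the 6 arrays alone.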

How the data were processed

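The table deposited by the authors holds log2 signals, used here without change. RMA, which adjusts for background, equalises the arrays and combines the probes of a probe set, is the method named in the submitters' processing notes, without a version. Per the labels' protocols, total RNA was labelled with a 3' IVT Express kit. Arrays have no read depth, so 3 arrays per group limit the precision.

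Of 45101 probe sets 64 were controls. Among the other 45037, 34945 had a single symbol, which was updated through RefSeq of GRCm38.p6, and 932 with several symbols were left out of the gene test. Each gene was represented by its probe set with the highest mean over 6 arrays, which gave 18193 genes. Dim genes were kept.

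Groups were compared by lmFit and eBayes of limma 3.58.1 under R 4.3.3, with Benjamini-Hochberg adjustment over all genes and a threshold of 0.05. "Rose" refers to that threshold. Every listed gene keeps the adjustment over all genes. A second fit over all 45037 probe sets is an alternative. Exact permutation tests and motif searches used Python 3.11.15 with scipy 1.17.1. The fit was tested on simulated data.

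Genes named are the members, listed genes past the threshold or, where fewer than 2 passed, the 2 brightest, cluster neighbours and closest profiles; others are marked as chosen after their values were seen. The members and lists were chosen with earlier results of these data known. Alternatives left out each array, added the replicate number as a block, averaged probe sets, tested every probe set, dropped dim genes, changed the variance shrinkage, weighted arrays and centred arrays.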

Additional observations from a re-analysis of the deposited data

How the results depend on the processing

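The higher mean in alopecic skin held for each of the 5 members in every alternative in which it was tested. Oas3 and Oasl1 were not tested with dim genes left out. The differences themselves could move only where arrays were left out, weighted or centred. In the other alternatives they were fixed in advance, as each member has 1 probe set and the groups are of equal size. With each array left out in turn, the log2 difference ran from 4.27 to 4.70 for Oasl2 and from 2.86 to 3.28 for Oas1a, the number of members called from 0 to 2, the genes called as higher from 4 to 34 and as lower from 0 to 5, against 48 and 2 with 6 arrays. The change in the gap of Oas3 over Oasl1 ran from -0.0034, without alopecic replicate 2, to 0.56. Weighting the arrays, with a weight of 0.227 for unaffected replicate 3, called 126 genes as higher and 13 as lower and brought Oas2 past the threshold (log2 difference 1.94, limma adjusted p = 0.0147), so that 3 members passed; the cause was not tested. Testing every probe set called 1 as lower, and 2 members passed.

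Labels give both groups replicates 1 to 3. Deviations from the group means correlated across genes at -0.132, -0.197 and -0.33 between arrays of the same number. Unaffected replicate 3 held 42.2% of the squared deviations, so these values cannot decide whether the numbers pair the mice. With the replicate block no gene was called as higher or lower (0 and 0), nor any member (0). The limma adjusted p was 0.116 for Oas1a and 0.0824 for Oasl2. Their differences of 3.11 and 4.53 could not change, as each number holds 1 array of each group. Their SE was 0.16 each with the block, against 0.28 and 0.26 without it, and the block leaves fewer residual degrees of freedom.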

Other observations

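RefSeq gave 40 promoter windows, of the same 250 bases, for 36 of the genes that rose in alopecic skin. Of these windows 12 held the interferon-stimulated response element (30.0%) and 9 the gamma-activated site (22.5%), with 6 holding both. Among the 18109 windows of all measured genes the shares were 2.61% and 6.21%. The genes that rose were chosen by their values, so these shares are given as a description with no test.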
